A study of Mus musculus with 8 samples.

Results

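The response of Med14 S983A beta cells to forskolin (FSK) was described from 2 of the 54 pools of nuclei in the table, the FSK pool and the untreated (CON) pool of mutant beta cells. The members were fixed by these labels, and each difference is the level after FSK minus the level in CON. The pools came from hand-picked mouse islets in culture, profiled by single nucleus RNA-seq. Islets of 6 groups were used, from wild type (WT) mice and from C57BL/6J mice carrying Med14 S983A as a whole-body knock-in, each left untreated, exposed to FSK, or exposed to Exendin-4 (Ex-4) at 10 nM for 16 h. FSK was likewise applied for 16 h, and its dose in islets was not given in the sources used here. Because every cell of the mutant animal carries the allele, the mutant beta cells were cultured beside mutant alpha and delta cells. The table holds 1 pool for each condition and cell type, and the 8 sublibraries each contain all 6 conditions, so there is no replicate of any condition. No test could be run, and treatment cannot be told apart from islet preparation or barcode well. Intervals given below for levels and ratios are exact 95% intervals and cover counting error only. Those for shares of genes or promoters are exact 95% binomial intervals over the members. They treat members as independent, although genes vary together and some genes have several promoters. In pools of this kind, fewer nuclei expressing a gene and less RNA per nucleus cannot be told apart.

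Forskolin activates adenylyl cyclase directly, and the cAMP formed activates protein kinase A (PKA) and the exchange factor EPAC. PKA phosphorylates CREB, which binds the cAMP response element in promoters and enhancers, and in beta cells cAMP is known for amplifying insulin secretion and for inducing its own negative regulators. Med14 forms the backbone of Mediator, which links transcription factors to RNA polymerase II. The S983A change replaces a serine, described by the study as a PKA site, with alanine.

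The mutant CON pool held 1925445 counts and the mutant FSK pool 2303451, and levels are in counts per 10000 counts of the pool (CP10K). A single count equals 0.00519 CP10K in CON and 0.00434 CP10K in FSK. WT beta pools, used for comparison, held 2981093 to 3094377 counts. All 10 beta cell markers passed the filter on low levels, among them Slc2a2, the glucose transporter, at 4.82 CP10K in CON and 5.21 CP10K in FSK, against 0.494 and 0.204 CP10K in the mutant alpha pools. The sum of the beta cell markers was 47.7 CP10K in CON and 53.5 CP10K in FSK, but their median difference was -0.20 and only 4 of the 10 were above 0. By the threshold below, Iapp and G6pc2 were higher and Ins1, Ins2 and Nkx6-1 lower. Sums of the markers of the other types were 4.89 and 7.72 CP10K for alpha cells, 1.68 and 2.64 for delta cells, 1.27 and 1.85 for duct cells, and at most 0.464 for PP, acinar, endothelial, macrophage and stellate cells. Of the 4 alpha cell markers above the filter only Ttr passed the threshold below, at 0.447 CP10K in CON and 2.67 CP10K in FSK, and 7 of 8 loci linked to ribosomal RNA differed strongly between the pools. The part of these differences in the results was not tested.

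FSK-treated mutant beta cells had higher levels of the phosphodiesterase gene Pde10a, the G protein gene Gnas, the growth factor receptor gene Igf1r and the hormone processing genes Pam, Pcsk1, Pcsk2 and Cpe. They had lower levels of 34 of 152 splicing factor genes, 11 of 50 histone methylation genes, both insulin genes and the glucose-responsive factor Mlxipl. Of 10093 genes above the filter (a mean over the 6 beta pools of at least 0.0598 CP10K), 517 were higher and 273 lower by at least 0.58 on the log2(CP10K + 1) scale, which is 1.5-fold at high levels. These are 5.12% and 2.7% of the genes considered, or 7.83% in either direction. The scale understates the change of weakly expressed genes, and the median ratio of CP10K was 2.66 for the higher and 0.386 for the lower genes. Calls are thus more frequent among well expressed genes: with the filter at the 75th percentile, 501 of 4206 genes were higher and 268 lower. Shares of lists of well expressed genes, set below against all genes, hold this effect. At 2-fold, 164 genes were higher and 64 lower, and at 4-fold 7 and 6. The interval of the ratio excluded 1 for all 517 and all 273. Genes nearest the threshold differed by 0.5855 just inside and 0.5849 just outside on the higher side, and by -0.5853 and -0.5840 on the lower side. The excess of higher over lower genes (65.4% of calls) depended on the scale: after rescaling without ribosomal RNA linked and mitochondrial genes it was 439 higher against 374 lower (54.0%), and on linear CP10K with a small pseudocount it turned to 2210 against 3207 (40.8%).

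**Figure D1:**
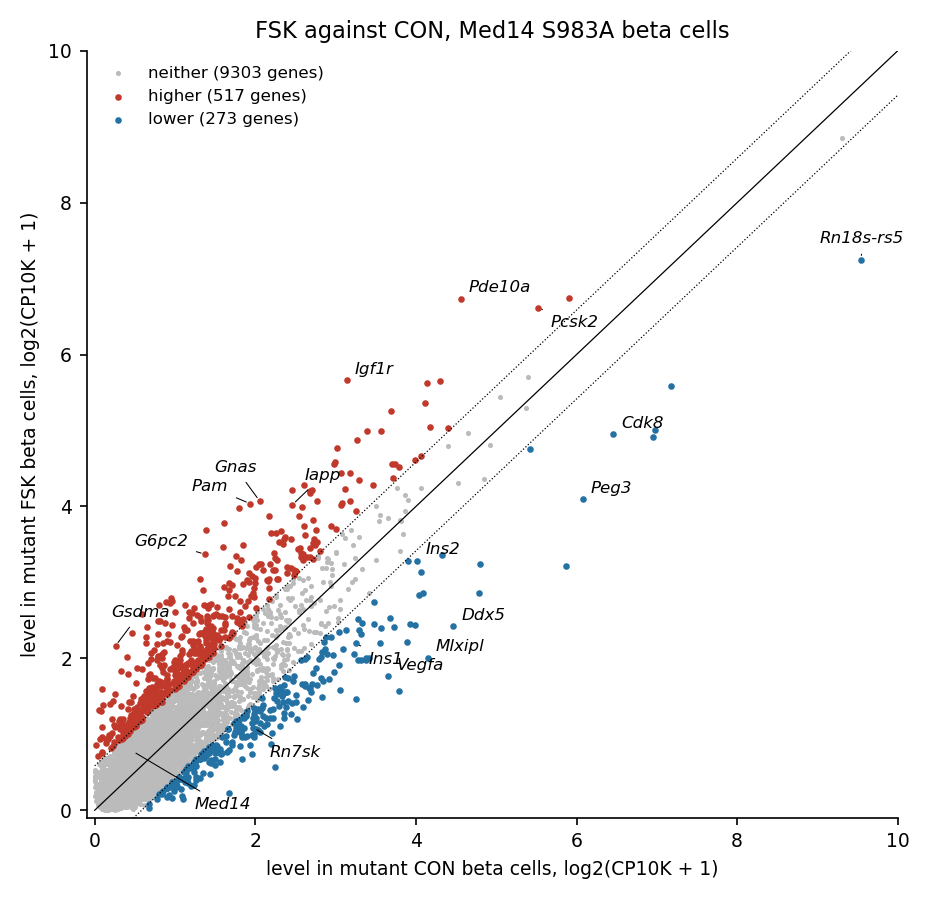
Level of each of 10093 genes in the untreated (horizontal axis) and FSK-treated (vertical axis) mutant beta cell pool, as log2(CP10K + 1), 1 point a gene. Dotted lines mark the 1.5-fold threshold, and Igf1r and Pde10a lie far above them while Rn18s-rs5, Peg3 and Mlxipl lie far below.

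The 15 genes with the largest difference among the better expressed genes were Igf1r, Dgkg, Pde10a, Rasgef1b, Gmds, Pam, Gnas, G6pc2, Tmtc1, Gsdma, Herc4, Arhgap26.1, Dlg2, Wdr25 and Slc23a2. Promoters of 12 of them were found in RefSeq (build GRCm38.p6, 250 bases before to 50 after the start). None held the full cAMP response element TGACGTCA, and 5 of the 12 held the core site TGACG, the first bases of that element, or its reverse complement CGTCA. Of the 15 genes with the most negative difference 12 had a promoter there, of which 2 (Peg3 and Cmss1) held the full element and 4 the core site. The first 4 of the higher genes with a core site, by size of difference, are shown because CREB is known to bind the core site as well as the full element. The windows are chr5:99252878-99253177 (minus strand) for Rasgef1b, chr13:32338495-32338794 (minus) for Gmds, chr2:174327499-174327798 (plus, the first of 4 listed Gnas promoters) for Gnas and chr2:69210823-69211122 (plus, the first of 2 listed) for G6pc2, with the core sites in capitals.
Rasgef1b: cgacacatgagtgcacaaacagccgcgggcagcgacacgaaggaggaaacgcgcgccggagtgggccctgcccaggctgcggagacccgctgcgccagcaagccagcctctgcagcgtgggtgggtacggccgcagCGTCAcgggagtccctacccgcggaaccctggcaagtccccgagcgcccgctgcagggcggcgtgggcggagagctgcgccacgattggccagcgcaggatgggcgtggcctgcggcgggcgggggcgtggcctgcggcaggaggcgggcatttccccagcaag
Gmds: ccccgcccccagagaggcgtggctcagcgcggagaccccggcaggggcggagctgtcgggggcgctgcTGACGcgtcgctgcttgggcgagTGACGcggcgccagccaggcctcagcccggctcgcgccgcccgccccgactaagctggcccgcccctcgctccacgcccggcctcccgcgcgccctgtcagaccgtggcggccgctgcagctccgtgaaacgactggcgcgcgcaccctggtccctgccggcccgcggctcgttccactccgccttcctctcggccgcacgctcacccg
Gnas: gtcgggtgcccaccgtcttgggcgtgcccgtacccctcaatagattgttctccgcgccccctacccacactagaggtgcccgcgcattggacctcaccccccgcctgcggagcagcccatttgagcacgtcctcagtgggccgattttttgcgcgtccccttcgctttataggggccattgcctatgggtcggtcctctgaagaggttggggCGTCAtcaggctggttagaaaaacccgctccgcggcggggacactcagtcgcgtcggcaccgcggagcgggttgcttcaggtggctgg
G6pc2: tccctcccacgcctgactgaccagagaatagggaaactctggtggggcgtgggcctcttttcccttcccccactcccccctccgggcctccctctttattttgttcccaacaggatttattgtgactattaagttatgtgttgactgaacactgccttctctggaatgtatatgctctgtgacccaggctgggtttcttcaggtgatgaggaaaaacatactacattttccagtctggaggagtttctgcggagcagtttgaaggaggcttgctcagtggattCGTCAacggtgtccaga
With the start site at 0, the core site begins at position -114 in Rasgef1b, -182 and -159 in Gmds, -38 in the Gnas window shown and 33 in the G6pc2 window shown. In the other listed Gnas promoters it begins at -57 (window from 174327518) and -216 (from 174329756), and the window from 174284070 holds none. The second G6pc2 promoter holds none. Which Gnas promoter the counted transcripts used was not examined. Core sites were in 30.1% of the 618 promoters of the higher genes (26.5 to 33.9), in 32.6% of the 298 promoters of the lower genes (27.3 to 38.2) and in 31.6% of the 10351 promoters of all genes above the filter (30.7 to 32.5). The full element was in 2.75% (1.61 to 4.37) of the promoters of higher genes, 1.34% (0.367 to 3.40) of those of lower genes and 3.05% (2.73 to 3.40) of all, and in 5.81% (2.69 to 10.7) of the 155 promoters of genes higher in both genotypes. CCAAT or ATTGG, another promoter motif, was in 32.5%, 32.2% and 37.2% in the same order. Every motif was searched on both strands, and the full element contains the core site on each strand. Among all 32851 promoters of the table, 1.79% held the full element and 20.8% a core site, and 401 of the 517 higher and 221 of the 273 lower genes had a promoter there. A match is a description of these letters only, and enhancers were not examined.

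Genes of the cAMP pathway itself included several of the largest differences. Gnas, which encodes the stimulatory G protein alpha subunit, was at 3.15 CP10K in CON and 15.8 in FSK (ratio 5.02, 4.60 to 5.48), beside 2.09 and 12.7 in WT. Pde10a, a phosphodiesterase that degrades cAMP and cGMP, went from 22.5 to 105.6 CP10K (ratio 4.69, 4.54 to 4.85). Both genes were far lower in all 4 pools without FSK than in the 2 with it. Of 16 phosphodiesterase genes 5 were higher (31.25%, against 5.12% of all genes) and none lower. After Pde10a came Pde1c, the calmodulin-dependent form (3.02 to 8.18 CP10K), the cAMP-specific Pde4d (3.84 to 8.78), Pde3b, the form acted on by insulin signaling (1.34 to 3.68), and Pde7b (1.38 to 2.66). Higher levels were found for 3 of 12 G protein alpha genes (25%), Gnaq (2.09 to 4.84 CP10K) and Gnai3 (0.509 to 1.75) beside Gnas. Gnas lies in an imprinted locus with several overlapping transcripts, and the strand setting behind the counts was not given.

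Regulators downstream of cAMP moved in both directions. Prkar1a, a regulatory subunit that holds PKA inactive, was at 1.397 CP10K in CON and 2.87 in FSK, and Rapgef4, which encodes EPAC2, at 5.70 and 10.3. The anchoring proteins were divided, with Akap6 higher (0.743 to 2.19 CP10K) and Akap9 (8.35 to 3.15), Akap8 (1.70 to 0.560) and Akap8l (3.64 to 1.03) lower. The list of PKA subunits, inhibitors, anchors and EPAC therefore gave 3 higher and 3 lower of 20 (15% each way, against 5.12% and 2.7% of all genes). Adcy6, one of 3 adenylyl cyclase genes above the filter, was lower, at 1.70 CP10K in CON and 0.395 in FSK (ratio 0.233, 0.182 to 0.294). Among CREB family, coactivator and SIK kinase genes 4 of 14 were higher (28.6%): Creb1 (0.706 to 1.92 CP10K), Creb3l2 (1.64 to 3.37), Crem (0.462 to 1.34), whose short forms repress CREB targets, and Sik3 (4.57 to 7.58). No member of that list was lower, although rescaling without ribosomal RNA linked genes gave 3 higher and 1 lower. Among 15 early cAMP response genes above the filter, of 32 listed, Nr4a2, an orphan nuclear receptor, had the largest difference (0.161 to 1.29 CP10K, ratio 8.01, 5.52 to 12). It was followed by Irs2, the insulin receptor substrate, and Crem, and the other 12 did not pass the threshold. That threshold is hard to reach at low levels, so this does not show that those 12 were unchanged. Judged by plain ratio, 5 of the 7 early response genes with 100 or more counts were higher and 0 lower. On the small-pseudocount scale mentioned above, 7 of the 15 were higher and 3 lower. Rgs17, which accelerates GTP hydrolysis on inhibitory G proteins, went from 0.956 to 5.73 CP10K and Rgs7 from 2.28 to 6.83, while Rgs11 went from 1.83 to 0.508.

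The gene with the largest difference was Igf1r, the receptor for insulin-like growth factor 1, on chromosome 7 (67601518 to 67883416, GRCm39, plus strand). It was at 7.80 CP10K in mutant CON and 49.7 in mutant FSK, a ratio of 6.37 (6.04 to 6.73), and at 8.42 in mutant Ex-4. In WT it was at 12.6, 48.4 and 8.80 CP10K in CON, FSK and Ex-4. The FSK pools thus stood together and apart from the other 4. Of 75 receptor tyrosine kinase, adaptor and MAPK genes 12 were higher and 2 lower, against 4 and 1 in WT. The mutant shares were 16% and 2.67%, beside 5.12% and 2.7% of all genes. Ror2, a Wnt5a receptor, went from 1.48 to 7.27 CP10K, Dusp10, a phosphatase of stress-activated kinases, from 0.561 to 3.60, and Egfr from 0.789 to 3.16. Ntrk2 (2.16 to 6.10 CP10K) and Mapk10 (3.54 to 8.47), the neuronal JNK, were higher as well. Insrr, the insulin receptor-related receptor, was lower, at 4.75 CP10K in CON and 1.31 in FSK, with WT at 5.16 and 1.43. Gipr, the receptor of the incretin GIP, was lower at 4.14 and 1.32 CP10K, beside 3.06 and 1.79 in WT. Other islet receptors were higher, among them Gabbr2, a GABA-B subunit (5.55 to 17.6), the prolactin receptor Prlr (5.80 to 15.8), the growth hormone receptor Ghr (8.76 to 19.4) and the muscarinic receptor Chrm3 (12.002 to 22.5). Prlr, Ghr and Chrm3 had WT levels that were already 12.5, 17.1 and 25.3 CP10K in CON and 14.8, 17.5 and 24.7 after FSK.

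Enzymes of lipid second messengers gave 8 higher and 0 lower of 45 (17.8% higher, against 5.12% of all genes). Dgkg, a diacylglycerol kinase, was at 1.62 CP10K in CON and 11.9 in FSK (ratio 7.36, 6.55 to 8.31), much as in WT (1.96 and 13.03). Inpp5f (1.12 to 3.92 CP10K), the phosphatidylinositol kinase gene Pip5k1b (4.45 to 10.9) and the PI3-kinase regulatory subunit Pik3r1 (2.00 to 4.86) came next. The group also held the phospholipase C genes Plch1 (1.09 to 2.96 CP10K) and Plcb1 (3.52 to 7.26), as well as Pik3c2g and Dgkh.

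Genes for maturation of peptide hormones were higher while those for insulin were lower. Of 21 granule and prohormone processing genes above the filter, 8 were higher and 3 lower, and in WT 7 and 2. The mutant shares were 38.1% and 14.3%, beside 5.12% and 2.7% of all genes. Pam, which amidates peptide C-termini, went from 2.83 to 15.4 CP10K (ratio 5.45, 4.98 to 5.98). The prohormone convertases Pcsk1 (1.73 to 5.58 CP10K) and Pcsk2 (44.9 to 97.1), the carboxypeptidase Cpe (5.01 to 14.99) and the Pcsk2 chaperone Scg5 (2.71 to 7.15) were each at least 2-fold higher by ratio. Iapp, which encodes amylin, was at 4.51 CP10K in CON and 15.2 in FSK, beside 11.6 and 14.1 in WT. Spock1 (1.37 to 5.35 CP10K) and the granin Chgb (2.37 to 6.09) completed the higher group. Ins1 was lower at 8.52 CP10K in CON and 3.59 in FSK (ratio 0.422, 0.387 to 0.459), and Ins2 at 15.2 and 8.76 (0.576, 0.544 to 0.610). WT levels were 4.54 and 3.26 for Ins1 and 10.4 and 8.81 for Ins2, so that the genotypes differed most in CON. A call by the difference from mutant CON favors an outlying level in that pool. Chga, another granin, was at 19.03 CP10K in mutant CON and 9.27 in mutant FSK, and at 10.1 and 10.0 in WT. Ins1 and Ins2 are close copies, and how reads shared by them were counted was not stated.

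In the endoplasmic reticulum, Ero1b, the beta cell oxidase for disulfide bonds, was at 11.9 CP10K in CON and 37.2 in FSK (ratio 3.13, 2.99 to 3.28), and Ern1, the stress sensor IRE1, at 2.06 and 6.67. Hspa5, the chaperone BiP, was lower, at 2.11 and 0.977 CP10K, while WT held 0.833 and 0.986. The other 43 of 46 members of this list did not pass the threshold, so that 4.35% were higher and 2.17% lower, near the shares over all genes. Among 38 exocytosis genes Snap25, a SNARE protein of granule fusion, had the largest difference (2.38 to 9.19 CP10K), and Pclo, the active zone scaffold, was lower (41.7 to 26.1). Of 186 trafficking genes 7 were higher (3.76%) and 3 lower (1.61%), both below the shares over all genes (5.12% and 2.7%). The lower ones were the golgins Golga4 (15.5 to 6.14 CP10K), Golga3 (2.63 to 1.12) and Golga2 (1.605 to 0.647). Among the 7 higher were the exocyst subunits Exoc6b (5.07 to 12.3 CP10K) and Exoc4 (4.93 to 9.11).

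Of 24 glucose sensing and KATP channel genes 3 were higher and 0 lower (12.5% higher, against 5.12% of all genes). With the filter at the 75th percentile, 3 of 14 of these genes were higher, beside 501 of 4206 genes in all. G6pc2, the islet glucose-6-phosphatase that opposes glucokinase, was at 1.59 CP10K in CON and 9.34 in FSK (ratio 5.86, 5.20 to 6.63), beside 4.199 and 8.97 in WT. Gpd2, the mitochondrial glycerol phosphate dehydrogenase, went from 2.43 to 7.89 CP10K and pyruvate carboxylase, Pcx, from 1.605 to 3.72. The other 21 of 24 glucose sensing and KATP channel genes did not pass the threshold. Of 33 potassium channel genes 5 were higher and 1 lower (15.2% and 3.03%, against 5.12% and 2.7% of all genes), with a median difference of 0.01. The higher ones were Kcnb2, a delayed rectifier (3.5005 to 13.6 CP10K), Kcnh1 (1.18 to 5.50), the G protein-gated Kcnj6 (1.15 to 4.33), the auxiliary subunit Kcnip4 (8.09 to 20.6) and Kcnn2 (0.275 to 1.059). Scn3a, a voltage-gated sodium channel, was at 0.732 CP10K in CON and 4.65 in FSK (0.750 and 4.98 in WT), Trpm3 at 8.61 and 28.2, and Slc8a1, the sodium-calcium exchanger, at 3.97 and 11.8. Both inositol trisphosphate receptor genes that passed the threshold, Itpr1 (3.38 to 1.32 CP10K) and Itpr3 (1.84 to 0.821), were lower.

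Beta cell transcription factors were split, 8 higher and 3 lower of 29 (27.6% and 10.3%, against 5.12% and 2.7% of all genes). Rfx3, a factor of endocrine differentiation, was at 1.55 CP10K in CON and 6.46 in FSK (ratio 4.16, 3.67 to 4.73), St18 at 4.85 and 13.7, Foxo1 at 1.47 and 4.06 and Glis3 at 4.77 and 9.86. Esrrg, Meis2 and Myt1l had differences of 0.77 to 0.81. Glis3, at 13.4 CP10K in WT CON and 10.2 in WT FSK, and Rfx3, at 4.57 and 5.46, reached after FSK in the mutant a level close to that of WT. Both are named for their difference from mutant CON, so this is a description only. Mlxipl, which encodes the carbohydrate response factor ChREBP, was lower at 16.7 CP10K in CON and 3.03 in FSK (ratio 0.182, 0.167 to 0.197), and at 10.7 and 2.64 in WT. Nkx6-1 (2.41 to 1.05 CP10K), required for beta cell identity, and Ldb1 (1.02 to 0.304) were lower too. Pdx1, at 1.86 and 1.30 CP10K, and Mafa, at 1.01 and 0.504, did not pass the threshold.

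Among the remaining genes of largest difference, Rasgef1b, an exchange factor of Ras family proteins, went from 2.47 to 14.7 CP10K, Gmds, the first enzyme of GDP-fucose synthesis, from 2.06 to 12.8, and Tmtc1, an O-mannosyltransferase, from 0.509 to 5.01. Gsdma, a gasdermin, went from 0.197 CP10K (0.140 to 0.271) to 3.48 (3.25 to 3.73), a ratio of 17.6 (12.7 to 25.1), and in WT from 0.0996 to 3.47. Herc4, a ubiquitin ligase (0.748 to 5.50), Slc23a2, a vitamin C transporter (0.930 to 5.93), Wdr25 (0.857 to 5.72), the synaptic scaffold Dlg2 (2.04 to 10.0) and a second entry of the GTPase activator Arhgap26 (0.379 to 4.05) complete the 15. In each of the 15, both FSK pools lay above all 4 pools without FSK, where mutant FSK above mutant CON was fixed by the choice of genes.

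**Figure D2:**
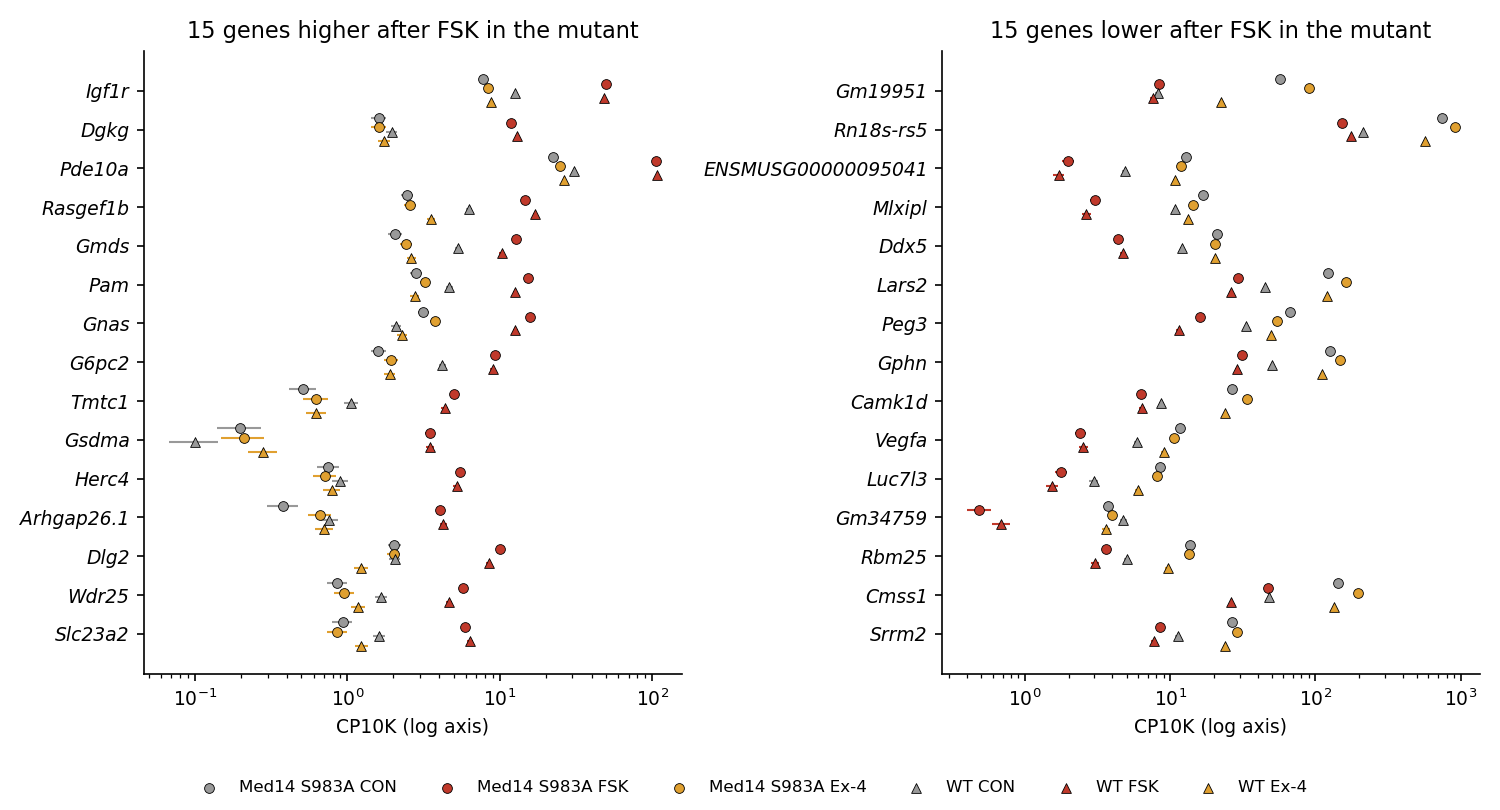
CP10K (log axis) in the 6 beta cell pools of the 15 higher and 15 lower genes that differed most, circles for Med14 S983A and triangles for WT, gray for CON, red for FSK and orange for Ex-4, with exact 95% counting intervals as bars. The 2 red symbols of each higher gene sit to the right of the other 4, while for the lower genes the gray and orange circles sit to the right of the red circle.

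The adhesion lists differed in their counts. Of 57 synaptic adhesion genes 15 were higher and 2 lower (26.3% and 3.51%), and 3 and 2 in WT. Nrcam went from 0.566 to 4.30 CP10K (ratio 7.60, 6.23 to 9.35), Sdk1 from 2.22 to 8.31 and Cntnap2 from 16.6 to 48.2. Cadm1 was at 0.332 CP10K in CON and 1.52 in FSK. Neuroligin 2, Nlgn2 (1.41 to 0.352), and latrophilin 1, Adgrl1 (2.56 to 0.964), were lower. WT levels of Cntnap2 were 48.0 CP10K in CON and 53.8 in FSK, so the mutant FSK pool was near WT and the mutant CON pool below it. Cntnap2 was picked by its mutant difference, which favors an outlying mutant CON level. Of 29 axon guidance genes 4 were higher (13.8%) and 0 lower: Efna5 (0.909 to 3.64 CP10K), Robo1 (1.86 to 5.405), Robo2 (7.35 to 15.2) and Neo1 (0.706 to 1.65). Of 39 cadherin and protocadherin genes 2 were higher and 1 lower (5.13% higher, with a median difference of -0.08), and Cdh8 among them went from 2.59 to 10.2 CP10K. Of 68 integrin, focal adhesion and actin genes 5 were higher and 1 lower (7.35% and 1.47%), near the 5.12% and 2.7% of all genes.

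Higher genes were long. Their median length in the genome was 192.9 kb, against 30.6 kb for the lower genes and 35.8 kb for all genes above the filter. Of the longest decile of genes (median 282.2 kb), 27.8% were higher and 1.73% lower, with a median difference of 0.30. Of the shortest decile (median 5.83 kb), 0.508% were higher and 3.35% lower, with a median of -0.12. In WT the medians of the same deciles were 0.01 and -0.06, in mutant alpha cells 0.18 and -0.03 and in mutant delta cells 0.20 and -0.08. The median level of the longest quintile, on the log2(CP10K + 1) scale, was 0.84, 1.12 and 0.83 in the mutant and 1.13, 1.19 and 0.94 in WT, each in the order CON, FSK and Ex-4. After the trend with length was removed 333 genes were higher and 279 lower. Synaptic adhesion then had 5 higher and 3 lower and its median turned from 0.14 to -0.08, beta cell factors had 4 and 2, phosphodiesterases 3 and 0, phosphoinositide enzymes 5 and 1 and exocytosis genes 1 and 1, while granule genes (8 and 3), histone methylation genes (0 and 11) and G protein alpha genes (3 and 0) had the counts given above.

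**Figure D3:**
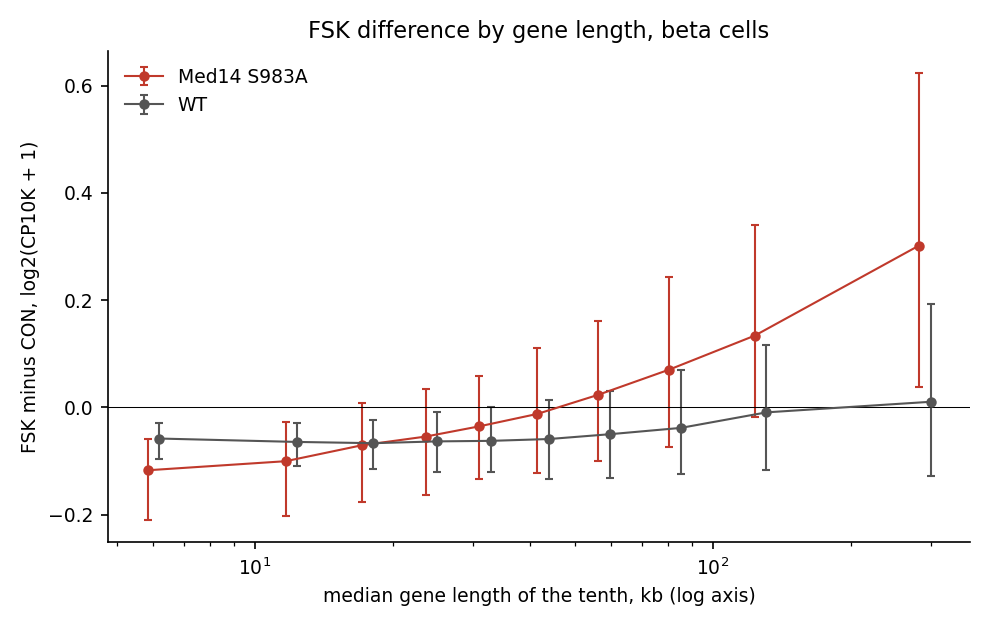
Median FSK minus CON difference, on the log2(CP10K + 1) scale, for deciles of the genes ordered by length (median length of each decile in kb on a log axis), in mutant (red) and WT (gray, shifted sideways for clarity) beta cells, with bars from the 25th to the 75th percentile over genes. The mutant median climbs from -0.12 in the shortest decile to 0.30 in the longest, and the WT median stays between -0.07 and 0.01.

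Lower genes were led by RNA processing factors. Of 152 splicing and mRNA processing genes 34 were lower and 4 higher (22.4% and 2.63%), and in WT 5 and 1. The median difference of the 152 was -0.17, against -0.02 over all genes. Ddx5, an RNA helicase, was at 21.0 CP10K in CON and 4.37 in FSK (ratio 0.208, 0.194 to 0.223). Luc7l3 went from 8.56 to 1.77 CP10K, Rbm25 from 13.8 to 3.64, and the large spliceosome-associated proteins Srrm2 from 26.8 to 8.49 and Son from 14.9 to 4.44. The serine-arginine factors Srsf11 (7.29 to 2.00 CP10K), Srsf5 (4.47 to 1.42), Srsf6 and Srsf10, the branch point subunit Sf3b1 (5.49 to 1.94) and the ribonucleoproteins Hnrnpu (7.26 to 2.76) and Hnrnpa2b1 (5.59 to 2.48) were lower as well. Ptbp3 (1.25 to 4.80 CP10K), Rbfox1, Rbfox2 and Rbm47, regulators of alternative exons, were higher. In WT, Son was at 6.62 CP10K in CON and 4.21 in FSK, Srrm2 at 11.2 and 7.72, Rbm25 at 5.05 and 3.03, and Ddx5 at 12.06 and 4.71. Each of these WT CON levels was below that of mutant CON and above that of mutant FSK. Some pairs of RNA-binding proteins share sequence, and the treatment of shared reads was not given.

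Histone lysine methylation genes were lower in 11 of 50 (22%, against 2.7% of all genes) and higher in 0, with 1 lower in WT. They comprised 5 members of the Kmt2 family, Kmt2a (9.70 to 3.03 CP10K, ratio 0.312, 0.285 to 0.340), Kmt2d (5.33 to 1.75), Kmt2e (5.15 to 2.17), Kmt2c (6.23 to 3.66) and Kmt2b (2.00 to 0.690). They also included Ehmt2, a writer of the repressive H3K9 mark (1.54 to 0.404), Nsd1 (5.23 to 3.06), Dot1l (1.70 to 0.764), and the demethylases Kdm6b (1.83 to 0.729), Kdm4a (1.33 to 0.482) and Kdm5a (2.34 to 1.22). WT levels of Kmt2a were 5.07 CP10K in CON and 2.87 in FSK, and of Kmt2d 2.38 and 1.89, so that the mutant and WT FSK pools lay closer together than the CON pools. Genes called by their difference from mutant CON tend to have an outlying level there, so this order is a description only.

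Among secreted factors Vegfa, the angiogenic factor made by beta cells, was lower, at 11.6 CP10K in CON and 2.40 in FSK (ratio 0.207, 0.188 to 0.227), beside 5.92 and 2.52 in WT. Pdgfa was also lower (0.945 to 0.122 CP10K). Peg3, a paternally expressed zinc finger gene, was at 66.5 CP10K in CON and 16.1 in FSK, and at 33.2 and 11.4 in WT, and its neighbour Zim1 at 3.66 and 1.32. Of 26 imprinted genes 3 were higher and 2 lower (11.5% and 7.69%, against 5.12% and 2.7% of all genes), the higher ones being Gnas, Inpp5f and Rian. The noncoding RNA Gm34759 was at 3.75 CP10K in CON and 0.482 in FSK, with 4.75 and 0.685 in WT, a difference of similar size in both genotypes. An unnamed gene, ENSMUSG00000095041, was at 12.8 and 1.98 CP10K. Gphn, the gephyrin gene, was at 125.1, 31.1 and 147.7 CP10K in mutant CON, FSK and Ex-4, and at 49.9, 28.7 and 110.8 in WT. Lars2, placed in the ribosomal RNA linked list described below, had similar levels, 122.6, 29.2 and 163.5 in the mutant and 45.0, 26.0 and 119.4 in WT. Gphn is not in the ribosomal RNA linked list, and a link between these genes was not tested.

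Ribosomal RNA linked loci were among the strongest of the lower genes, with 7 of 8 lower and a median difference of -1.76. This list was drawn up for this report with earlier results of these data known, so its count is a description only. Lars2, Cmss1 and Camk1d are annotated as protein coding, and their link to ribosomal RNA was not tested. The paper instead names Cmss1, Lars2 and Camk1 among markers of beta cells from ad lib fed mice, reported there as induced by Ex-4 depending on Med14. Rn18s-rs5, an 18S sequence, was at 747.0 CP10K in CON and 151.3 in FSK, Gm19951 at 57.2 and 8.32, Lars2 at 122.6 and 29.2, Cmss1 at 143.7 and 46.9 and Camk1d at 26.6 and 6.29. Together the 8 loci took 11.04% of the counts of mutant CON beta cells, 2.45% in mutant FSK and 14.05% in mutant Ex-4. In WT they took 3.25% in CON, 2.43% in FSK and 8.74% in Ex-4. Both mitochondrial ribosomal RNA genes were also lower, mt-Rnr1 at 1.397 and 0.321 CP10K and mt-Rnr2 at 1.22 and 0.317. These levels move with the groups of lower genes described above, and their part in those differences was not tested.

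Cdk8 and Rn7sk, of the transcription machinery, differed in opposite directions between genotypes. Cdk8, the kinase of the Mediator kinase module, was at 86.9 CP10K in mutant CON, 29.97 in mutant FSK and 75.7 in mutant Ex-4, and at 19.1, 38.0 and 44.2 in the corresponding WT pools. Rn7sk, the 7SK RNA that sequesters the elongation factor P-TEFb, was at 2.93, 1.12 and 5.15 CP10K in the mutant and at 1.52, 7.30 and 3.43 in WT. Both were lower after FSK in the mutant and higher after FSK in WT, and the difference between genotypes was not tested. Of 24 Mediator genes the others past the threshold were Med12 (1.397 to 0.595 CP10K) and Med12l (1.44 to 2.93). Med14 itself, on chromosome X (12541605 to 12628584, GRCm39, minus strand), was at 0.384 CP10K in CON and 0.716 in FSK (ratio 1.86, 1.41 to 2.49), a difference of 0.31 that did not pass the threshold. Ell2, an elongation factor, went from 0.815 to 3.24 CP10K.

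**Figure D4:**
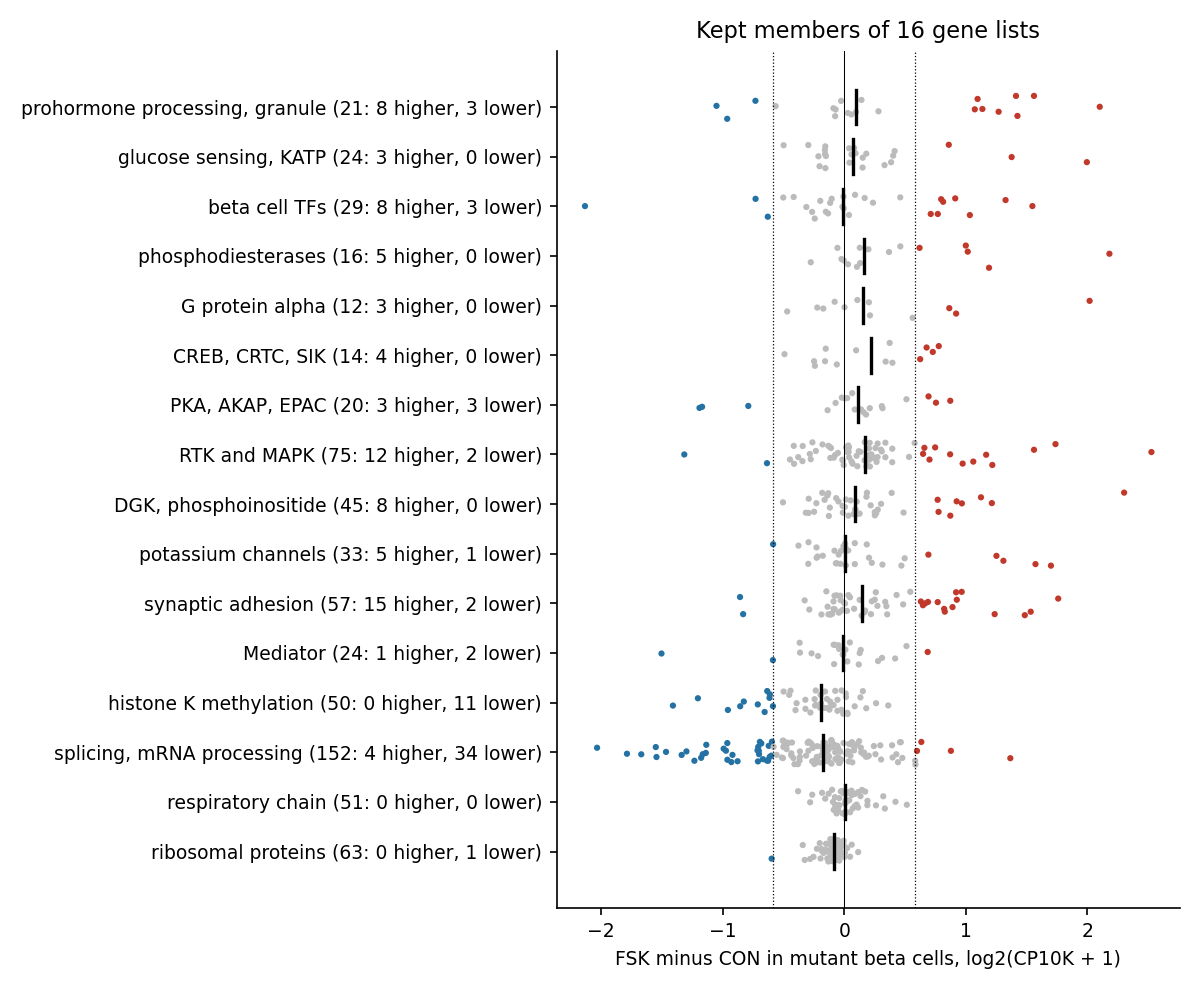
FSK minus CON difference in mutant beta cells, on the log2(CP10K + 1) scale, for the members above the filter of 16 gene lists, 1 point a gene (red higher, blue lower, gray neither, spread vertically at random), with the list median as a black bar and the 1.5-fold threshold as dotted lines. Red points gather in the granule, phosphodiesterase, receptor kinase and adhesion lists and blue points in the splicing and histone methylation lists, whereas respiratory chain and ribosomal protein genes, which are weakly expressed, lie near 0 on this scale.

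Several metabolic and housekeeping groups hold genes of low level, for which the log2(CP10K + 1) threshold is hard to reach, so few calls there do not show that levels were alike. None of 51 respiratory chain genes, 39 fatty acid metabolism genes, 26 interferon and antigen presentation genes, 17 V-ATPase subunits or 15 cell cycle genes passed it in either direction. Their median differences ranged from -0.09 to 0.02. Of 63 ribosomal protein genes 1 was lower, Rps24, and the sum of the list was 13.6 CP10K in CON and 7.88 in FSK. When linear CP10K was used and the pseudocount set to 0.01 times the median, 39 of the 63 ribosomal protein genes were lower and 1 higher, and with 0.1 times the median 32 and 1. At the smaller of these pseudocounts 14 respiratory chain genes were higher and 15 lower, 15 and 8 fatty acid genes, 5 and 13 interferon and antigen presentation genes, 4 and 4 V-ATPase subunits and 3 and 4 cell cycle genes. Solute carriers gave 12 higher and 1 lower of 170 (7.06% and 0.588%, against 5.12% and 2.7% of all genes). Of these Slc35f3 had the largest ratio (0.0675 to 0.955 CP10K, 14.1, 8.10 to 27.0).

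WT beta cells provided a comparison that uses neither mutant pool. FSK pools of WT had 153 genes higher (1.52%) and 73 lower (0.723%) than WT CON. Of the 153, 136 were also higher in the mutant (88.9%, 82.8 to 93.4), and these are 26.3% of the 517. Of the 73, 26 were also lower in the mutant (35.6%, 24.7 to 47.7), and these are 9.52% of the 273. The WT difference had the sign of the mutant one for 463 of the 517 and 261 of the 273, with medians of 0.34 and -0.27. Over all genes above the filter the WT difference was above 0 in 28.4% and below 0 in 71.6%, with a median of -0.05, and the Pearson correlation of the WT and mutant differences was 0.68, a description over genes that are not independent. Genes above the threshold in opposite directions were Cdk8 and Rn7sk.

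The median levels of both sets were further apart between genotypes in CON than after FSK. The median level of the 517 higher genes was 1.21 CP10K in mutant CON, 3.18 in mutant FSK and 1.20 in mutant Ex-4, and 2.33, 3.42 and 1.43 in WT CON, FSK and Ex-4. For the 273 lower genes it was 2.88, 1.16 and 2.58 CP10K in the mutant and 1.52, 1.12 and 2.58 in WT. Both FSK pools lay above all 4 other pools in 420 of the 517 (16.3% of all genes above the filter did so) and below them in 248 of the 273 (34.3% of all). Mutant CON was the lowest of the 6 pools in 299 of the 517 and the highest in 184 of the 273. These genes were chosen by the difference of mutant FSK from mutant CON, which fixed the order of those 2 pools. The shares over all genes carry no such choice, so they are not a like background. The places of the pools, mutant CON at an end among them, are therefore a description only.

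**Figure D5:**
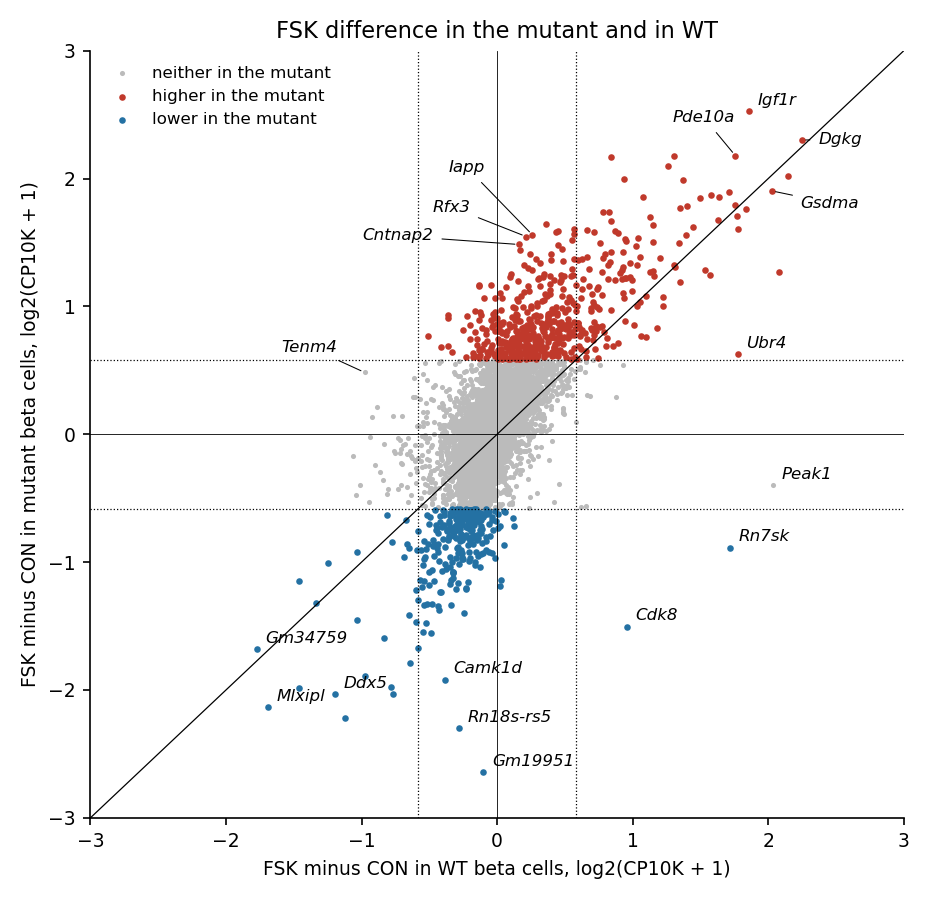
FSK minus CON difference in WT (horizontal axis) and mutant (vertical axis) beta cells, both on the log2(CP10K + 1) scale, 1 point a gene, red higher and blue lower in the mutant. The diagonal marks equal differences and dotted lines the 1.5-fold threshold: Igf1r, Dgkg and Gsdma are far from 0 in both genotypes, Cntnap2, Rfx3 and Gm19951 are far from 0 in the mutant and near 0 in WT, and Cdk8 and Rn7sk lie in the quadrant of opposite signs.

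Genes with the largest gap between the genotypes, listed here for that gap, differed in how their pools were ordered. Cntnap2, Rfx3, Gmds and Iapp had mutant differences 1.30 to 1.33 above the WT ones. Tenm4, a teneurin, was at 1.66 CP10K in mutant CON and 2.72 in mutant FSK but at 5.79 and 2.45 in WT. Peak1, a pseudokinase of the actin cytoskeleton, was at 0.649 and 0.252 CP10K in the mutant and at 0.508 and 5.17 in WT, so that its levels were closer in CON than after FSK. It belongs to 11 genes that the study linked to FSK through Med14, of which 10 were above the filter. None of the 10 passed the threshold in the mutant and 1, Peak1, passed it in WT, with median differences of 0.04 and 0.32. The study called genes across nuclei by adjusted p value, and its supplement states that no fold cutoff was used. The 11 genes summed to only 5.63 CP10K in WT CON and 14.2 in WT FSK, and to 6.22 and 6.57 in the mutant. The threshold used here is hard to reach at such levels, so these counts do not show that the other genes were unchanged in WT. The study picked these genes on these samples, so the list is not independent evidence of its direction. No genotype gap was tested, since each rests on 1 pool per condition.

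The same 517 and 273 genes were also examined in the other endocrine pools of the mutant islets, which have nuclei of their own but come from the same islet preparations. In alpha cells 150 of the 517 were higher and 0 lower, and 73 of the 273 were lower and 1 higher, where 2.77% and 0.832% of all 10093 genes were higher and lower. In delta cells the numbers were 196 higher and 2 lower of the 517, and 136 lower and 0 higher of the 273, with 4.68% and 2.23% of all genes. Median differences of the 517 were 0.36 in alpha and 0.44 in delta cells, and of the 273 -0.41 and -0.58. Igf1r and Pde10a were past the threshold in all 3 cell types, by 1.499 and 3.15 in alpha cells and 2.47 and 2.12 in delta cells. Rasgef1b (0.11 and 0.19) and G6pc2 (0.28 and 0.14) were not past it in alpha or delta cells, and Gnas differed by 2.58 in delta cells and by 0.01 in alpha cells. Whether these differences depend on cell type was not tested.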

How the data were processed

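Single nuclei of mouse islets were fixed and barcoded by the authors (Parse Evercode), aligned to mm39 with split-pipe, filtered for extreme counts or features and high mitochondrial share, normalized and integrated in Seurat, and annotated by marker genes. The authors deposited 1 table of natural log values, ln(1 + 10000 × count / pool total), for 17362 genes in 54 pools (6 conditions by 9 cell types). The annotation release, the strand setting and any correction of counts before pooling were not given in the sources used here.

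Counts and pool totals were recovered by searching for the total at which 1 step of a pool equals 1 count (100% of values lay within 0.001 of a whole count). Pool differences were divided by the natural log of 2, giving differences of log2(CP10K + 1), and called at 1.5-fold for genes at or above the 40th percentile of the mean over the 6 beta pools. Counts were given exact Poisson intervals, ratios exact conditional (Clopper-Pearson) intervals and shares exact Clopper-Pearson intervals, at 95%. With 1 pool per condition no test was run. Named genes were Med14, the 15 largest and 15 smallest differences among genes with a mean over the 6 beta pools at or above the median of those kept, and members of 54 function lists and 9 marker lists, with those of largest difference as examples. Others were chosen after their values were seen. Members and lists were chosen with earlier results of these data known. Alternatives were linear CP10K with 3 pseudocounts (0.01, 0.1 and 1 times the median), no filter, a 75th percentile filter, a 2-fold threshold, the median set to 0, rescaling without 14 ribosomal RNA linked and mitochondrial genes, removal of a lowess trend on length (span 0.3), CP10K ratios for genes with 100 or more counts, and the mutant Ex-4 pool as control. Gene lengths were taken from GENCODE M39 on GRCm39 (16531 genes with a single match by name) and promoters from RefSeq (GRCm38.p6), matched by symbol. Scripts were tested on simulated data. The software was scipy 1.17.1, statsmodels 0.14.6, pandas 2.3.3, numpy 2.4.6 and matplotlib 3.10.9 under Python 3.11.15. Some members of the lists are counted but not reported here by name.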

Additional observations from a re-analysis of the deposited data

Results flagged for a closer look

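Cdk8 and Rn7sk were the genes past the threshold in opposite directions in the 2 genotypes. Cdk8 differed by -1.50 after FSK in mutant beta cells and by 0.96 in WT, on the log2(CP10K + 1) scale. Rn7sk differed by -0.89 in the mutant and by 1.72 in WT. In mutant delta cells Cdk8 differed by -1.63 and Rn7sk by -0.87, and in mutant alpha cells by -0.92 and -0.20. The genotype difference was not tested for either gene, since each value rests on 1 pool per condition.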

How the results depend on the processing

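No named gene past the threshold changed its direction under the alternatives run for it, but the majority of calls turned from higher to lower at the smaller pseudocounts, and the medians of the synaptic adhesion list (0.14 to -0.08) and the exocytosis list turned below 0 once the length trend was removed. On linear CP10K the higher and lower genes numbered 2210 and 3207 (40.8% higher), 2034 and 2887 (41.3%) and 1101 and 929 (54.2%) at pseudocounts of 0.01, 0.1 and 1 times the median. The share of WT higher genes also higher in the mutant was 79.8% and 80.3% at the first 2 of these, and that of WT lower genes 63.9% and 60.1%. A 2-fold threshold gave 164 and 64 (71.9%) and a WT lower share of 69.2%. Removing the length trend gave 333 higher genes (54.4%) and a WT higher share of 78.8%. CP10K ratios over genes with 100 or more counts gave 1644 and 1392 (54.2%) and a WT higher share of 75.2%. The share of calls that were higher was 70.2% with the median set to 0, 54.0% after rescaling and 69.9% with the mutant Ex-4 pool as control, against which 466 of the 517 and 206 of the 273 genes were still past the threshold. The 15 largest remained past the threshold under every alternative that scored them (1 has no length). Of the 15 smallest, 10 remained after rescaling, which leaves out the other 5, and 14 after removal of the length trend, where ENSMUSG00000095041 has no length. No paired analysis was possible because each condition is 1 pool, and no replicate could be left out. Depth limits genes near the filter, where 1 count is 0.00519 CP10K in mutant CON.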

Other observations

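Many of the called genes were in no list: 171 of the 517 higher and 106 of the 273 lower genes belonged to one. The following were chosen after their values were seen. Kcnma1, the large-conductance potassium channel, was at 9.49 CP10K in mutant CON and 30.7 in mutant FSK, and Il1r1, the interleukin 1 receptor, at 10.9 and 30.8. Protein kinase genes outside the lists included Prkcb (5.44 to 17.2 CP10K) and Prkd1 (0.878 to 3.98). Gng12, a G protein gamma subunit, went from 7.13 to 26.2 CP10K.

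The largest ratio shown here belonged to Plat, tissue plasminogen activator, which rested on 3 counts in mutant CON and 189 in mutant FSK (ratio 52.7, 17.7 to 257.6) and had 0.00664 and 0.533 CP10K in WT. Rnf152, a lysosomal ubiquitin ligase, had 13 and 463 counts (ratio 29.8, 17.2 to 56.3). Among lower genes, the chromatin remodelers Chd3 (3.59 to 0.834 CP10K), Chd4 (4.68 to 1.68) and Atrx (8.94 to 2.95) stood beside the histone methylation genes, and the golgin Golgb1 (14.2 to 4.45) beside the other golgins. Baiap3, a factor of dense-core vesicle traffic, was at 2.19 CP10K in CON and 0.169 in FSK, with 1.29 and 0.120 in WT. The noncoding RNA Firre was at 5.41 and 2.06 CP10K. WT levels of Chd3, Atrx and Golgb1 were 1.59, 4.43 and 6.48 CP10K in CON and 0.808, 2.74 and 4.198 after FSK.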
